A study of Mus musculus with 6 samples.

Results

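Receptors for glutamate, GABA and glycine were examined in whole mouse retinas on postnatal day 8 (P8), in 3 retinal RNA samples labelled Lrp5-/- and 3 labelled wild type (WT). The members were all probes of an Illumina Mouse-WG6 BeadChip whose annotated symbol named a subunit of an AMPA, kainate or NMDA receptor, a metabotropic glutamate receptor, a GABA-A alpha, beta, gamma or rho subunit, a GABA-B subunit or a glycine receptor subunit. They were 79 of the 45281 probes on the array and stood for 38 of its 19057 named genes. A probe was counted as expressed when its detection p, which sets its signal against negative control beads on the same array, was under 0.05 on at least 3 of the 6 arrays. By that rule 45 probes of 28 receptor genes were expressed, and other subunits of these receptors were not analysed here.

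The Lrp5-/- mice carried the germline allele Lrp5tm1Dgen on the strain B6.129P2-Lrp5tm1Dgen/J, in which the Wnt co-receptor Lrp5 is disrupted in every cell and retinal vessels form late. The WT mice were C57BL/6J and of the same age, and the labels name no treatment. Because the groups came from different stocks, the allele and any strain difference cannot be told apart. Each array held RNA of 1 mouse (n = 3 per group), and the label "retina" covered all cell types together, so that fewer cells of a type and less RNA per cell cannot be told apart in any value below.

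AMPA, kainate and NMDA receptors are cation channels opened by glutamate, the transmitter that photoreceptors, bipolar cells and ganglion cells release, whereas metabotropic glutamate receptors act through G proteins and often sit on the releasing terminal. GABA-A and glycine receptors are chloride channels assembled from several subunits, and in the retina they receive the output of amacrine cells. The Gabrr subunits form GABA channels best known from bipolar cell terminals, and OFF bipolar cells read photoreceptor glutamate through AMPA and kainate receptors. In mice the second postnatal week, just before eye opening, is when bipolar cells begin to connect to ganglion cells.

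Some receptor genes lie next to each other in the mouse genome. The sequence around their starts is shown for a pair that was not detected alike, Gabrr1 and Gabrr2, and for a GABA-A pair that was, Gabra4 and Gabrb1. Gabrr1 was detected on all 6 arrays, whereas the only probe of its neighbour Gabrr2, on the same strand, was detected on 0. Gabra4 and Gabrb1 were detected on 5 and 6 arrays. They are annotated on opposite strands with their first parts overlapping by 388 bases. Each window holds the 250 bases before and the 50 bases after the annotated start (RefSeq, GRCm38.p6), 5′ to 3′ on the gene's own strand, with CG dinucleotides in capitals. The windows are chr4:33132306-33132605 (+) for Gabrr1, chr4:33062862-33063161 (+) for Gabrr2, chr5:71658259-71658558 (-) for Gabra4 and chr5:71657671-71657970 (+) for Gabrb1.
Gabrr1: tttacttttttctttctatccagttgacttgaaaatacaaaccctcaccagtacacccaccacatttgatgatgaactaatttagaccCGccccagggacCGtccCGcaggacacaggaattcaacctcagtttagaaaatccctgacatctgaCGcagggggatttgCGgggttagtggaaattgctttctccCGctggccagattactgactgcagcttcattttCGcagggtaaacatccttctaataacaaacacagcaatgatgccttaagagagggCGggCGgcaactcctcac
Gabrr2: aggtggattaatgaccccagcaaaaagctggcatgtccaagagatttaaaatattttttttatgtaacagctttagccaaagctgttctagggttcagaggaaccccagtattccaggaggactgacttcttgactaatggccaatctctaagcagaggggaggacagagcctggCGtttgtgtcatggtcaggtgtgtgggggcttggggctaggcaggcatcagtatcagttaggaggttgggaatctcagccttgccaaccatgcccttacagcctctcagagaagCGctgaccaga
Gabra4: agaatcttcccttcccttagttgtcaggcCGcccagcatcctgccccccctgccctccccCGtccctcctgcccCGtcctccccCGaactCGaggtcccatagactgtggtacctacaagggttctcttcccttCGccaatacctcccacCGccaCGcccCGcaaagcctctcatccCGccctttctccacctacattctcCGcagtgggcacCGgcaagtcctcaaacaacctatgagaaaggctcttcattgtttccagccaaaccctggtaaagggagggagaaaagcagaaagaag
Gabrb1: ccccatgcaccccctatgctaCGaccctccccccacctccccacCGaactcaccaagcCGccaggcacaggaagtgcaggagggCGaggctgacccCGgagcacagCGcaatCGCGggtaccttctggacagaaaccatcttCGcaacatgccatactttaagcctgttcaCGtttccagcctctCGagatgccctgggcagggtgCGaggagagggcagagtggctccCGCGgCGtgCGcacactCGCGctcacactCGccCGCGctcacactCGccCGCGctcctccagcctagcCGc

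The Gabrr1 window held 9 CG dinucleotides and that of Gabrr2 held 2, against 12 for Gabra4 and 25 for Gabrb1. Where a gene had several annotated starts, only the first listed was used here and in the medians below. A second annotated start of Gabrb1 had 9 in its window. Of the 38 receptor genes, 29 had such a window in the RefSeq table, with a median of 11.5 CG dinucleotides in the 20 expressed genes and 12 in the 9 that were not, so the expressed and unexpressed receptor genes had nearly the same median. Over all 27025 genes with a window the median was 7.0. The letters TAATCC, read on both strands as the core bound by the photoreceptor and bipolar cell factors CRX and OTX2, occurred in the window of 1 receptor gene, Gabrr2, and in 7.16% of all windows. The letters TATAAA, read on both strands, occurred in 4 of the 20 expressed genes and 14.2% of all windows. The pairs Gabrg3 and Gabra5, and Gabrb2 and Gabra6, were further neighbours of which only the first was expressed, while the neighbours Gria2 and Glrb were both expressed.

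Most of these receptor genes were expressed at P8. Of the 79 receptor probes, 57% were expressed, against 45.8% of all probes, and 73.7% of the 38 genes had an expressed probe, against 58.2% of all named genes. A total of 22 genes were detected on all 6 arrays by at least 1 probe. All 4 AMPA subunits, 4 of 5 kainate, 3 of 6 NMDA, 4 of 5 metabotropic glutamate, 2 of 4 alpha, both beta, both gamma, 2 of 3 rho, 1 of 2 GABA-B and 4 of 5 glycine receptor genes were expressed. The number of expressed genes lay between 22 and 30 when the detection rule was made stricter or looser.

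Detected on no array were 8 genes: the kainate subunit Grik3, the NMDA subunits Grin2a and Grin2d, the metabotropic receptor Grm3, the alpha subunits Gabra5 and Gabra6, the rho subunit Gabrr2 and the glycine receptor subunit Glra4. Apart from Grin2a and Glra4, each of these was read by only 1 probe. Gabra6 is best known from cerebellar granule cells and Gabra5 from hippocampus. Grin2a is the NMDA subunit that rises late in the developing brain, and both of its probes, at 34.7 to 53.0 normalized signal units, lay near the median of undetected probes, which was 46.9 to 49.2 across the arrays. Gabbr2, the GABA-B subunit that couples to the G protein, was detected on 2 arrays, both Lrp5-/-, at 61.0, 59.7 and 60.8 in Lrp5-/- and 51.3, 56.1 and 58.9 in WT retinas. Grin2c, an NMDA subunit known from cerebellum, was detected on 1 Lrp5-/- array. These genes fell just outside the rule, and Gabrb2, Glra1 and Glra3, each detected on 3 arrays, fell just inside it. No receptor gene was detected on all arrays of 1 group and on none of the other.

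An undetected probe did not always mean an undetected gene. Of the 28 expressed genes, 14 also had a probe that was not expressed. Grik1 was read by 7 probes, of which 2 lay between 604 and 1052 on every array, another 2 between 55.7 and 72.7, and 3 were detected on no array. Probes of 1 gene can read different transcripts and differ in efficiency, so levels are compared below only within a probe. Where a gene had several expressed probes, the brightest on average over the 6 arrays stands for it.

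**Figure D1:**
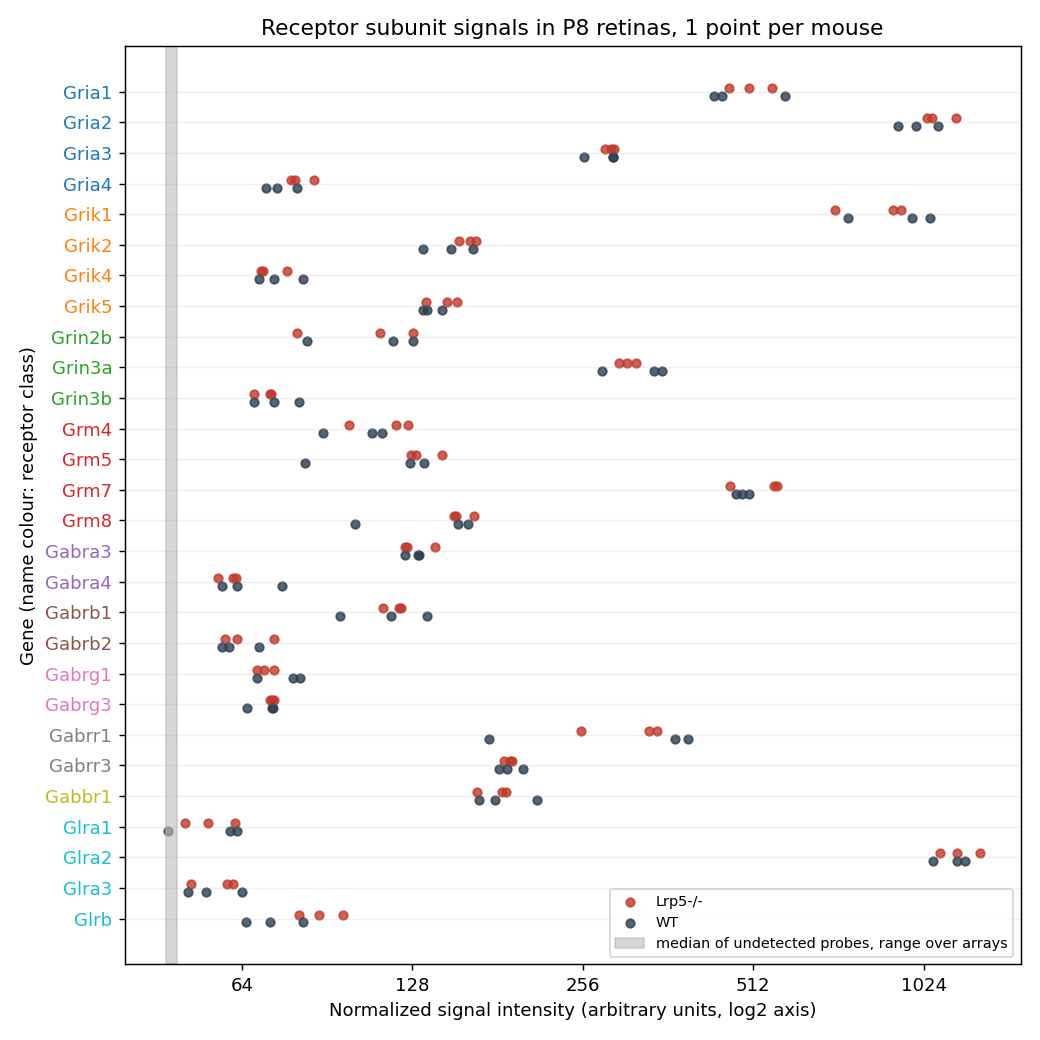
Normalized signal of the representative probe of each of the 28 expressed receptor genes (log2 axis), with 1 point per mouse for the Lrp5-/- (red) and WT (dark) groups. The grey band, 46.9 to 49.2, spans the medians of undetected probes on the 6 arrays. Points of the groups overlap for every gene shown.

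The question put to each gene was whether its signal differed between Lrp5-/- and WT retinas. Signals were compared on the log2 scale with limma, fitted to all 20721 expressed probes with Benjamini-Hochberg adjustment over all of them. At an adjusted p under 0.05, 0 of the 45 receptor probes differed, against 0.116% (24) of all probes, of which 0.029% were higher and 0.0869% lower in Lrp5-/- retinas. The smallest adjusted p among the receptor probes was 0.853. At an unadjusted p under 0.05, 2 receptor probes were higher (4.44%, against 2.43% of all probes) and 0 were lower (against 2.43%). With an added minimum of 1.3-fold, 0 were left, against 0.261% of all probes higher and 0.569% lower.

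Over the 28 genes the median log2 fold change, Lrp5-/- minus WT, was 0.04, and over all expressed probes it was 0.0. The fold changes ran from -0.12 (Grik1) to 0.28 (Glrb). For 26 of 28 genes (92.9%) the 95% interval of the fold change lay within 1.5-fold either way, and the same held for 95.6% of the receptor probes against 97.4% of all probes. The exceptions were Grm5, whose interval ran from 0.935-fold to 1.52-fold, and Gabrr1, with 0.709-fold to 1.55-fold. After another background correction (neqc), which widens differences at low signals, the interval lay within 1.5-fold for 22 of 28 genes, and for 77.8% of receptor probes against 85.5% of all probes.

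**Figure D2:**
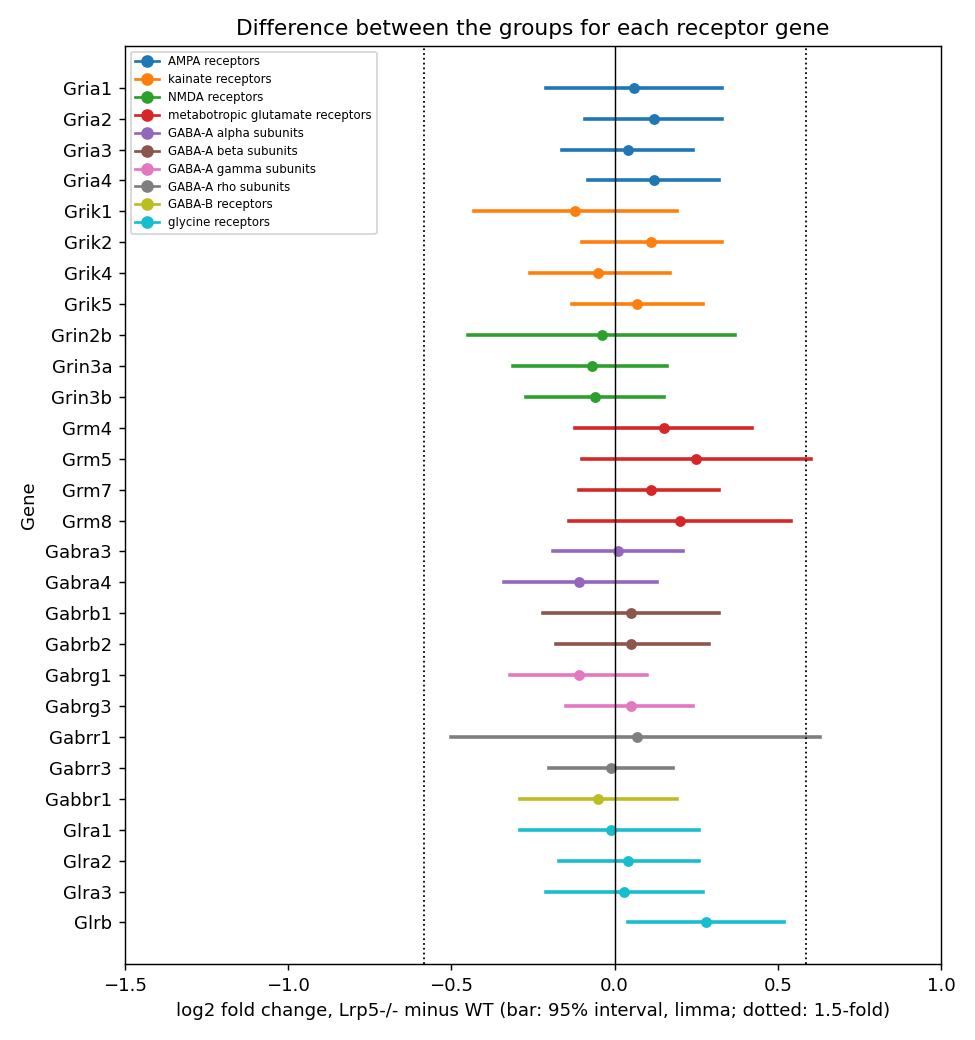
Log2 fold change (Lrp5-/- minus WT) of each expressed receptor gene with its 95% interval from limma, coloured by receptor class, with dotted lines at 1.5-fold. The bars of Grm5 and Gabrr1 cross a dotted line, and that of Glrb alone leaves 0 outside, from 0.04 to 0.52.

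AMPA receptors mediate fast excitation, and Gria2 is the subunit that keeps most of them from passing calcium. Gria2 signals were 1167, 1041 and 1058 in Lrp5-/- and 925, 994 and 1087 in WT retinas (log2 fold change 0.12, 95% interval -0.09 to 0.33; limma adjusted p = 0.987). WT replicate 3 lay among the Lrp5-/- retinas and the other WT retinas below them. For Gria1, which builds calcium-permeable channels where Gria2 is missing, the signals were 503.5, 553.5 and 465 in Lrp5-/- and 451, 436 and 582 in WT retinas (0.06, interval -0.21 to 0.33). The highest and the lowest values were both WT. Gria3 ranged from 258 to 291 over the 6 arrays (0.04) and Gria4 from 70.5 to 85.8 (0.12), both with overlapping groups. Over the 4 AMPA genes the median log2 fold change was 0.09.

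Among kainate subunits, Grik1 is used by OFF bipolar cells of the mouse. Its signals were 903, 935.5 and 713 in Lrp5-/- and 752, 977 and 1052 in WT retinas (log2 fold change -0.12, 95% interval -0.43 to 0.19; limma adjusted p = 0.989). The lowest retina of each group lay well below the other two, so the spread within each group exceeded the difference between them. For Grik2, a subunit that can form channels alone, the signals were 155, 162 and 166 in Lrp5-/- and 164, 149.5 and 134 in WT retinas (0.11, interval -0.10 to 0.33). The other expressed Grik2 probe was at -0.10. Grik4 and Grik5 encode high-affinity subunits that need a partner from the other group, and their log2 fold changes were -0.05 and 0.07 with intervals inside -0.26 to 0.27. Grik4 ranged from 68.5 to 81.9 and Grik5 from 134 to 154. Over the 4 expressed kainate genes the median was 0.01.

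NMDA receptors need glycine or serine as well as glutamate. Grin2b, the glutamate-binding subunit that dominates early in brain development, gave 80.2, 128.4 and 112 in Lrp5-/- and 128.4, 118 and 83.3 in WT retinas (log2 fold change -0.04, 95% interval -0.45 to 0.37; limma adjusted p = 0.994). One retina of each group was low, and the group means hardly differed. The other 2 Grin2b probes were detected on no array. Grin3a, a glycine-binding subunit that lowers calcium entry, ranged from 297 to 318 in Lrp5-/- and from 277 to 353.5 in WT retinas (-0.07, interval -0.31 to 0.16). Its relative Grin3b ranged from 67.1 to 80.8 (-0.06). WT values of both spread to either side of the Lrp5-/- values.

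The median log2 fold change of the 4 expressed metabotropic receptor genes was 0.17, and 0.04 without WT replicate 1. Grm5, a receptor that couples to phospholipase C, gave 144.5, 129.9 and 127 in Lrp5-/- and 82.8, 127 and 134 in WT retinas (log2 fold change 0.25, 95% interval -0.10 to 0.60; limma adjusted p = 0.987). Grm8, which like Grm4 and Grm7 lowers transmitter release from terminals, gave 153, 164.5 and 152 in Lrp5-/- and 101, 154 and 161 in WT retinas (0.20, interval -0.14 to 0.54; limma adjusted p = 0.987). In both genes WT replicate 1 was far below the other 5 retinas, which overlapped. Without that array the fold changes were 0.04 for Grm5 and -0.01 for Grm8. Grm4 signals were 98.9, 126 and 119.8 in Lrp5-/- and 89.0, 113 and 109 in WT retinas (0.15, interval -0.12 to 0.42, and 0.04 without WT replicate 1), with overlapping groups.

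Grm7 had 3 expressed probes, and 2 of them were the only expressed receptor probes whose groups did not overlap. The representative probe gave 565, 467 and 557 in Lrp5-/- and 489, 478 and 503 in WT retinas (log2 fold change 0.11, 95% interval -0.11 to 0.32; limma adjusted p = 0.987), with overlapping groups. A second probe gave 153.7, 149.8 and 151.6 in Lrp5-/- and 137, 118 and 124 in WT retinas (0.27, interval 0.07 to 0.47; limma unadjusted p = 0.014, adjusted p = 0.853). All 3 Lrp5-/- values were above all WT values. The remaining probe, detected on 4 arrays, lay at 61.7 to 63.6 in Lrp5-/- and 58.9 to 60.3 in WT retinas (0.07). Groups that did not overlap were thus seen for 2 of 45 expressed receptor probes (4.44%), below the 10.7% of all expressed probes.

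GABA-A channels combine alpha, beta and gamma subunits. Gabra3, an alpha subunit prominent in young neurons, gave 141, 125 and 124 in Lrp5-/- and 131, 124 and 132 in WT retinas (log2 fold change 0.01, 95% interval -0.19 to 0.21; limma adjusted p = 0.999), so the groups lay on top of each other. Gabra4, found with the delta subunit outside synapses in brain, gave 58.1, 61.7 and 62.4 in Lrp5-/- and 75.4, 59.1 and 62.6 in WT retinas (-0.11, interval -0.34 to 0.13). Here WT replicate 1 was the highest array, and without it the fold change was -0.00. Gabrb1, which shares in the GABA-binding site, gave 121, 122 and 114 in Lrp5-/- and 95.4, 117 and 136 in WT retinas (0.05, interval -0.22 to 0.32), with WT values on both sides. Gabrb2 ranged from 58.9 to 72.9 (0.05). The gamma subunit Gabrg1 ranged from 67.9 to 72.8 in Lrp5-/- and from 68.1 to 80.9 in WT retinas (-0.11, interval -0.32 to 0.10; limma adjusted p = 0.987), and Gabrg3 from 65.2 to 72.8 (0.05). Both gamma genes had overlapping groups.

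The rho subunit Gabrr1 was the least precisely measured gene of all 28. Its signals were 346, 335.0 and 254 in Lrp5-/- and 174.5, 373 and 393 in WT retinas (log2 fold change 0.07, SE 0.26, 95% interval -0.50 to 0.63; limma adjusted p = 0.994). Its other probe ordered the arrays almost alike, with 229.5, 265 and 201 in Lrp5-/- and 140.2, 257 and 274 in WT retinas (0.10). On both probes WT replicate 1 was lowest and WT replicate 3 highest, so that the WT retinas spanned all Lrp5-/- values. Gabrr3, in contrast, stayed between 186 and 192 in Lrp5-/- and between 182 and 201 in WT retinas (-0.01, interval -0.20 to 0.18). Gabbr1, the GABA-B subunit that binds GABA, gave 185, 187 and 166 in Lrp5-/- and 168, 179 and 212 in WT retinas (-0.05, interval -0.29 to 0.19; limma adjusted p = 0.99).

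Glycine receptors of young neurons hold the alpha subunit Glra2, which is replaced by Glra1 in the maturing spinal cord. Glra2 was detected on all arrays, at 1288, 1094 and 1172 in Lrp5-/- and 1066, 1211 and 1174 in WT retinas (log2 fold change 0.04, 95% interval -0.17 to 0.26; limma adjusted p = 0.991). Glra1 was detected on 1 Lrp5-/- and 2 WT arrays, at 47.3 to 62.8 over all 6 (-0.01), and Glra3, a subunit found in the inner plexiform layer of the mouse retina, on 3 arrays at 51.3 to 64.1 (0.03). These values of Glra1 and Glra3 reached down to the undetected level.

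Glrb, the beta subunit that ties glycine receptors to gephyrin at the synapse, was the representative probe with the smallest p. Its signals were 87.7, 96.6 and 80.8 in Lrp5-/- and 65.0, 82.1 and 71.7 in WT retinas (log2 fold change 0.28, SE 0.11, 95% interval 0.04 to 0.52; limma unadjusted p = 0.0279, adjusted p = 0.968). Lrp5-/- retinas were higher but for WT replicate 2, which lay above the lowest of them, and the array of WT replicate 1 did not detect the probe. Without WT replicate 1 the fold change was 0.20 (limma unadjusted p = 0.0797). The other Glrb probe was detected on no array.

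Expressed probes of 1 gene differed little in the size of their fold changes, but not all had the same sign. In the 10 genes with several expressed probes the spread between the highest and lowest log2 fold change had a median of 0.09 and reached 0.22 in Grik2. In 5 of these genes all expressed probes had 1 sign, and in Gabrb1, Gria2, Gria3, Grik1 and Grik2 the signs differed. The 4 Gria1 probes gave 0.01 to 0.06 and the 4 Grik1 probes -0.12 to 0.06.

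**Figure D3:**
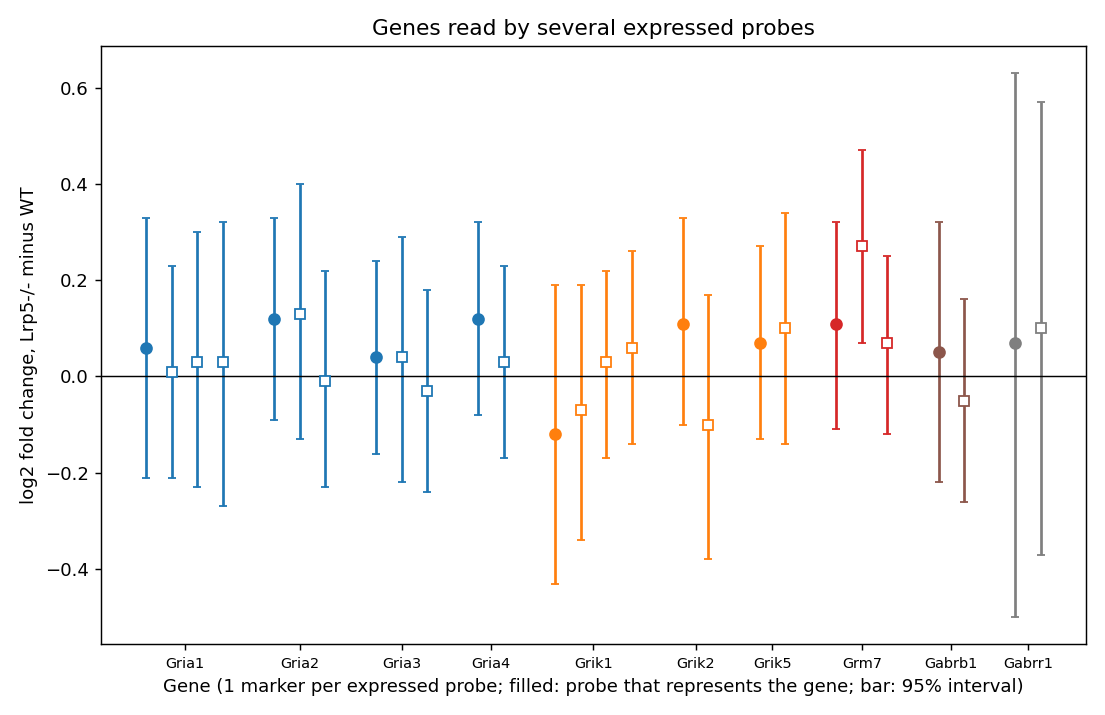
Log2 fold change (Lrp5-/- minus WT) with 95% interval for every expressed probe of the 10 receptor genes that had several. Filled circles mark the probe that represents the gene and open squares the others. Of all probes plotted, only the second Grm7 probe, at 0.27, has an interval that leaves out 0.

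One WT array stood apart, over all expressed probes as well as for the receptor genes. On WT replicate 1, 11.2% of all expressed probes deviated by more than 0.3 on the log2 scale from their means. On the other arrays 1.46% to 3.45% did. Of the 28 receptor genes 3 deviated that far on WT replicate 1, so the receptor genes differed from all probes in direction more than in size. WT replicate 1 gave the lowest of the 6 signals for 20 of the 45 receptor probes (44.4%), against 26.3% of all expressed probes, and the highest for 6 (13.3%), against 29.2%. Its receptor genes lay at a median of -0.12 on the log2 scale from their gene means, while those of the other arrays lay between -0.00 and 0.04 and all expressed probes of WT replicate 1 at 0.01. The median deviation was -0.41 for the metabotropic genes. For the rho genes it was -0.40, but only 2 were expressed, Gabrr1 at -0.79 and Gabrr3 at -0.01. The median deviation was 0.14 for the alpha and 0.07 for the gamma genes, each also with 2 expressed genes.

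On the same array 6 of the 11 expressed bipolar cell markers were lowest and 3, Otx2, Isl1 and Irx5, were highest. Among those lowest, Trpm1, the cation channel of ON bipolar cells, gave 470, 450 and 404 in Lrp5-/- and 255, 626 and 603 in WT retinas. Pcp2, a Purkinje and bipolar cell protein, gave 571 in WT replicate 1 and 959 to 1694 elsewhere, and Scgn, a calcium sensor of cone bipolar cells, 666 against 945 to 1156. The 11 bipolar markers, all expressed, deviated there by a median of -0.17, while their summed signal ranged from 23700 to 25600 over the arrays with WT replicate 1 at 25200. That sum lay mostly in Otx2 and Isl1, at 11616 and 7802 on WT replicate 1. Isl1 is also on the list of ganglion cell markers, so the sum does not measure bipolar cells alone. None of the markers counted was at 0. Of the 10 expressed photoreceptor markers 4 were lowest there, among them the rod transducin gene Gnat1 at 3556 against 5982 to 12679, and 4 were highest, among them the rod factor Nrl at 20686 against 12145 to 15424, with a median deviation of 0.04 for the list. Low markers were not confined to these lists. Of the 13 expressed amacrine cell markers 7 were lowest on WT replicate 1 and 4 highest, with a median deviation of -0.11. Of the 4 horizontal cell markers 2 were lowest and 1 highest, and of the 9 Müller glia markers 1 was lowest and 2 highest. WT replicate 1 was further the dimmest array before normalization, with a mean signal of 200 against 304 to 431. It detected 36 receptor probes against 41 to 46, and also the fewest of all probes, 18167 against 20286 to 21388. The part of these values in the receptor results was not tested.

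Leaving out WT replicate 1 changed the sign of 7 of the 28 fold changes, and the share over all probes was not computed. Some of the 7 were near 0 either way, such as Glra2 (0.04, then -0.01) and Gria3 (0.04, then -0.02). Others moved further, such as Grm8 (0.20, then -0.01). Without that array the class medians were 0.04 for AMPA, 0.07 for kainate, -0.13 for NMDA and -0.16 for the 2 rho genes, of which Gabrr3 stayed at -0.01. Gabrr1 was then at -0.31 (95% interval -0.59 to -0.03; limma unadjusted p = 0.0329, adjusted p = 0.558) and Grik1 at -0.26 (unadjusted p = 0.0486, adjusted p = 0.613). At an unadjusted p under 0.05 there were then 3 receptor probes lower, of Gabrr1 and Grik1, against 4.39% of all probes, and 1 higher, the second Grm7 probe (0.33, adjusted p = 0.201), against 3.71%. At an adjusted p under 0.05 there were 0, against 0.41% of all probes.

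**Figure D4:**
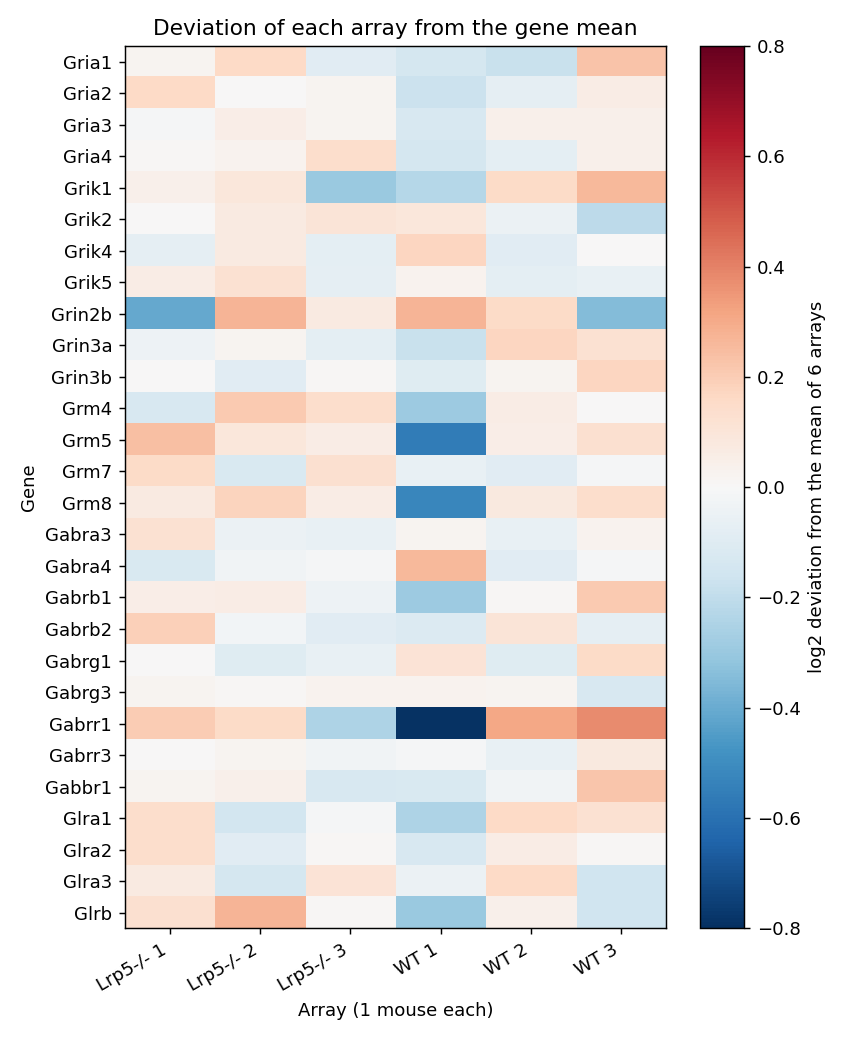
Deviation of each array from the mean of 6 arrays on the log2 scale, for the representative probe of each of the 28 expressed receptor genes. The column of WT replicate 1 holds the deepest blue cells, at -0.79 for Gabrr1, -0.56 for Grm5 and -0.52 for Grm8.

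Genes that work with these receptors were read from 7 lists, from receptor partners to chloride transporters. Of 62 such genes on the array 52 were expressed, with a median log2 fold change of -0.0. In limma 0 of them passed an adjusted p of 0.05, against 0.116% of all probes. At an unadjusted p under 0.05, 1 was higher (1.92%) and 2 were lower (3.85%), near the 2.43% of all probes in each direction. Among 19 expressed auxiliary subunits and scaffolds of glutamate receptors (of 26), Cacng2, the AMPA receptor partner stargazin, gave 88.8, 80.7 and 75.2 in Lrp5-/- and 59.7, 66.2 and 70.4 in WT retinas (0.32, 95% interval 0.10 to 0.54; limma unadjusted p = 0.00939, adjusted p = 0.816). Its groups did not overlap, which held for 10.7% of all expressed probes. The 59.7 of WT replicate 1 lay below the lowest detected signal of that array, 69.8. The synaptic scaffolds Dlg2 and Dlg3 were both at 0.16 with intervals that took in 0, and the list's median was 0.06.

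The 10 scaffold and trafficking genes of inhibitory receptors had a median of -0.03, with Lhfpl4, a partner of GABA-A receptors, at 0.18 (95% interval -0.07 to 0.42), Kctd8, a GABA-B auxiliary subunit, at -0.13 and Trak1 at -0.09. Of 7 expressed membrane transporters of 8, with a median of -0.10, the GABA transporter Slc6a13 gave 106, 106 and 134 in Lrp5-/- and 151, 134 and 175 in WT retinas (-0.42, interval -0.69 to -0.14; limma unadjusted p = 0.00689, adjusted p = 0.734). All 3 Lrp5-/- values were below all WT values, though the nearest values of the groups both rounded to 134. Groups did not overlap for 10.7% of all expressed probes. The glutamate transporters Slc1a7 and Slc1a1 were at -0.18 and 0.14.

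Among 9 genes of transmitter synthesis and breakdown (median 0.06), Glul, the glutamine synthetase of Müller glia, gave 73.2, 70.3 and 60.8 in Lrp5-/- and 65.2, 96.1 and 100.9 in WT retinas (-0.34; limma unadjusted p = 0.0496, adjusted p = 0.987), with overlapping groups. The 65.2 of WT replicate 1 lay below the lowest detected signal of that array, 69.8. Gad2, which makes GABA, was at 0.18 and Gldc, which breaks down glycine, at -0.15, neither past an unadjusted p of 0.05. The 4 vesicular transporters had a median of -0.04, with Slc17a7, the glutamate transporter of photoreceptor and bipolar cell vesicles, at -0.21 (95% interval -0.52 to 0.10). The chloride transporters Slc12a2 and Slc12a5, which set the direction of chloride flow through GABA-A and glycine channels, were at -0.06 and -0.08. Gabrd, the delta subunit, was the 1 expressed gene of 3 other ionotropic subunits outside the rule, at -0.23 (interval -0.45 to 0.0; limma unadjusted p = 0.0503).

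Across the whole data, each array detected 18167 to 21388 probes. Expressed retinal markers were found for ganglion (9 of 11), amacrine (13 of 15), horizontal (4 of 5), bipolar (11 of 11), photoreceptor (10 of 11) and Müller cells (9 of 9), with median log2 fold changes between -0.11 and 0.03. Astrocyte (3 of 5) and microglia markers (7 of 8) were at medians of -0.12 and -0.06. Among the photoreceptor markers the cone arrestin Arr3 was lower, at -0.64 (limma adjusted p = 0.0329). The 9 expressed endothelial markers of 11 had a median of -0.27, from -3.16 for the claudin Cldn5 (limma adjusted p = 3.64e-07), the 1 marker of the list past the threshold, to 0.25 for Emcn. Their summed signal, whose difference lay mostly in Cldn5 and Esam, was 1000.0 to 1170.0 in Lrp5-/- and 1860.0 to 2380.0 in WT retinas. Pigment epithelium markers (5 of 9) summed to 1430.0 to 3930.0 and lens markers (8 of 10) to 459 to 1960.0, in no order of group. One Lrp5 probe was higher, not lower, in the arrays labelled Lrp5-/- (91.3 to 99.2 against 46.8 to 59.5), the other 3 were undetected, and where these probes lie relative to the altered part of the gene is not given in the sources used here, so they do not check the genotype labels.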

How the data were processed

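Total RNA from P8 retinas of 3 Lrp5-/- and 3 WT mice was hybridised to Illumina Mouse-WG6 arrays. The authors deposited non-normalized and rank-invariant-normalized signal intensity per probe, made with BeadStudio, and a detection p-value per probe and array. The authors' normalization sets signals on a common scale and leaves the background in, which makes fold changes of dim probes small.

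Normalized intensities (floor 16) were taken to log2 and fitted with limma 3.58.1 in R 4.3.3 over the 20721 probes with a detection p under 0.05 on at least 3 of 6 arrays, with Benjamini-Hochberg adjustment. Intervals are 95% intervals from moderated standard errors. The fit was tested on simulated data. Symbols came from the platform's annotation. Only 6 arrays limit the precision. The study's SAM analysis was not rerun, because its false discovery rate rests on regrouped samples.

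Named with values were receptor genes past the threshold, the 6 with the smallest p in each direction, founding, developmental and rho subunits with an annotated probe, and up to 3 genes of each related list. All members and lists were chosen with earlier results of these data known. Alternatives covered normalization, an added offset, the detection filter, the variance model, the choice of probe, a plain test per probe, a replicate block and leaving out each array.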

Additional observations from a re-analysis of the deposited data

How the results depend on the processing

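At an adjusted p under 0.05, 0 receptor probes passed under each of the 18 alternatives. The smallest adjusted p was 0.201 without WT replicate 1, 0.219 with array weights and at least 0.707 otherwise. Of 45 receptor probes, 2 were higher at an unadjusted p under 0.05 in the main fit. That number was 1 under median scaling, 0 with no normalization and from 1 to 2 when an array was left out. It was 1 of 35 probes with detection on all 6 arrays, 1 of 28 with 1 probe per gene and 6 of 79 with no filter on detection. Among those 6 were probes of Gabrg1, Gria3, Grin2c and Grm4 that failed the detection rule. Shares of all probes at that p are given above for the main fit and without WT replicate 1 only. Probes lower at that p ranged from 0 to 3 over the left-out arrays. With the 1.3-fold minimum, 1 probe passed under neqc (Glrb, 0.51) and 1 under median scaling (Grm7, 0.39), and from 0 to 1 over the left-out arrays, with Grm5 at 0.38 without WT replicate 3. The median log2 fold change of the 28 genes was 0.13 under median scaling, which moved the median of all probes to 0.12. No detection rule moved the count of expressed genes outside 22 to 30.

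Deviations of same-numbered arrays from their group means correlated at -0.211, -0.15 and -0.279, and those of differently numbered arrays at 0 to 0.206. Centring on group means ties these correlations together, so they do not settle whether replicate numbers pair the samples. With a replicate block 2 receptor probes were higher and 0 lower at an unadjusted p under 0.05, and 0 passed the adjusted threshold.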

Other observations

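Gria3, Gabra3, Glra2 and Glra4 are X-linked, and the labels do not give the sex of the mice. The X-inactivation transcript Xist gave 2512, 57.1 and 2191 in Lrp5-/- and 1714, 2723 and 50.8 in WT retinas. One probe of the Y-linked gene Eif2s3y gave 50.2, 703.5 and 43.7 in Lrp5-/- and 47.7, 51.0 and 744 in WT retinas. Another, detected on all 6 arrays, gave 62.4, 85.4 and 62.7 in Lrp5-/- and 83.2, 61.9 and 83.0 in WT retinas. On that probe WT replicate 1, where Xist was high, was also among the higher arrays. Thus 1 array of each group combined a low Xist with a high Eif2s3y signal, Lrp5-/- replicate 2 and WT replicate 3. On those arrays Gria3 gave 291.3 and 290.0, its highest values, narrowly above the 257.6 to 289.3 of the other 4 arrays. Gabra3 gave 125 and 132, and Glra2 gave 1094 and 1174, within the range of the other 4 arrays.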
